A study of Homo sapiens with 40 samples.

Results

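The levels of 10 genes that carry or sense the flow of glucose were followed by RNA-seq in the HEK293A line, which grows attached and comes from human embryonic kidney. They were chosen by name, as glycolytic enzymes and targets of the glucose-sensing factor MondoA: TXNIP, ARRDC4, SLC2A1, HK1, HK2, PFKFB3, LDHA, PKM, ENO1 and PDK1. Earlier results of these data were known when the choice was made. All 10 were present among the 58395 genes of the count table and passed the filter of at least 10 counts summed over the 40 libraries, as did 28922 genes in all.

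Wild-type cells (WT) were compared with a PARP1 knockout (PARP1-KO), which is 1 clone with a homozygous CRISPR/Cas9 deletion in the PARP1 gene, grown from a single sorted cell. PARP1 makes poly(ADP-ribose) from NAD+ at DNA breaks. Cells of each genotype received no treatment, 0.1% DMSO, topotecan (Tpc) with 0.1% DMSO, 5 μM OL9-119 dissolved in 0.1% DMSO, or Tpc + OL9-119, for 5 to 5.5 h. Tpc is a poison that traps topoisomerase 1 on DNA, and OL9-119 inhibits TDP1, the enzyme that removes trapped topoisomerase 1. Tpc was given at 100 nM to WT and at 50 nM to PARP1-KO cells, so that genotype and dose cannot be told apart in any comparison of the Tpc responses. Each of the 10 conditions had 4 replicates, called biological in the labels and technical in the study's sequencing methods, and p-values therefore measure the spread between libraries that may be technical. One label field calls the genotype a knockdown, whereas the titles name a knockout.

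As background, glucose enters these cells through facilitative transporters such as SLC2A1 (GLUT1) and is phosphorylated by hexokinases (HK1, HK2). PFKFB3 makes fructose 2,6-bisphosphate, an activator of phosphofructokinase. ENO1 and PKM catalyse late steps that lead to pyruvate, LDHA reduces pyruvate to lactate, and PDK1 phosphorylates and inhibits pyruvate dehydrogenase. TXNIP and ARRDC4 are alpha-arrestins that limit glucose uptake. Both are transcribed under MondoA (MLXIP) with its partner MLX, which respond to glucose phosphates and bind carbohydrate response elements, a spaced pair of E-box-like motifs.

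The windows from 250 bases before to 50 bases after the transcription start are shown for the 4 genes with the contrasting patterns described below, as TXNIP and ARRDC4 are the MondoA targets, and among the 10 genes HK2 was the enzyme that moved most with genotype and LDHA the one that moved most with OL9-119 in WT cells. Sequences are those of RefSeq for GRCh38.p14, printed 5′ to 3′ on the strand of the gene. They lie at chr1:145996530-145996829 (minus strand), chr15:97960453-97960752 (plus), chr2:74833877-74834176 (plus) and chr11:18394313-18394612 (plus). Capitals mark matches on either strand to the spaced pair, written as CACGNG, 5 further bases and CACGNG, to the E-box CACGTG, which is also the core of MYC and MAX binding, or to ACGTG, the core of hypoxia response elements, which lies within every CACGTG.
TXNIP promoter: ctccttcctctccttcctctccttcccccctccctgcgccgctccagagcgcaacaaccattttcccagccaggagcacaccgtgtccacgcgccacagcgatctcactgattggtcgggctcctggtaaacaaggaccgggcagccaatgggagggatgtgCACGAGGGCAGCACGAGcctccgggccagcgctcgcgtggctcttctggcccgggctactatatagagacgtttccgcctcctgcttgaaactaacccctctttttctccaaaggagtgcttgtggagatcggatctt
ARRDC4 promoter: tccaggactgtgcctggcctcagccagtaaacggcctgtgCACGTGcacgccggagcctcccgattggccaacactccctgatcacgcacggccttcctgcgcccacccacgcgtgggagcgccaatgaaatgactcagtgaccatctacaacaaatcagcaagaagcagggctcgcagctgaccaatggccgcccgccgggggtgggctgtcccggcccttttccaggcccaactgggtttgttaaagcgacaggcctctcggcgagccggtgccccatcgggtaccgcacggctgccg
HK2 promoter: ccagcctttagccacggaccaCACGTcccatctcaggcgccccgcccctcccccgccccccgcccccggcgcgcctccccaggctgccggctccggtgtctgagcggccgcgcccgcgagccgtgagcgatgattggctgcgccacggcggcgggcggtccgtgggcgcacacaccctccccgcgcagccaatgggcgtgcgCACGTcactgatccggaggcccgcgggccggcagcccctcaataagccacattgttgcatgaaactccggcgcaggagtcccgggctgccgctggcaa
LDHA promoter: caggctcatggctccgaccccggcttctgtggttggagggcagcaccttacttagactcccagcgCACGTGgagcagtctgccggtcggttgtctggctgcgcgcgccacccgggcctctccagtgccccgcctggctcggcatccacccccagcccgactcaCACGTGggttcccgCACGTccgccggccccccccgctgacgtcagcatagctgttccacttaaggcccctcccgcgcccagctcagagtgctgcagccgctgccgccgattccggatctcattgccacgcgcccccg
The spaced pair began 88 bases before the start of TXNIP and was found at 1 of the 21 RefSeq start sites of the 10 genes and at 20 of 35116 start sites in all (0.057%). CACGTG lay near a start of 4 of the 10 genes, namely ARRDC4, HK2, PFKFB3 and LDHA, against 8.77% of 27305 genes when any start of a gene was counted. For HK2 it was near a second start site, 1043 bases downstream of the one shown, and for PFKFB3 near a start site 57998 bases from the 5′ end of the gene. ACGTG was found for 6 of the 10 genes, against 24.9% of genes counted in the same way. Counted by start site, CACGTG lay at 4 of the 21 sites against 7.26% of all sites, and ACGTG at 7 of the 21 against 21.4%. These matches describe letters, and binding was not measured.

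In GENCODE v44 on hg38 the genes span chr1:145992435-145996579 (TXNIP, ENSG00000265972, minus strand), chr15:97960703-97973833 (ARRDC4, ENSG00000140450, plus), chr1:42925353-42958893 (SLC2A1, ENSG00000117394, minus), chr10:69269984-69401884 (HK1, ENSG00000156515, plus), chr2:74834127-74893359 (HK2, ENSG00000159399, plus), chr10:6144934-6254644 (PFKFB3, ENSG00000170525, plus), chr11:18394560-18408425 (LDHA, ENSG00000134333, plus), chr15:72199029-72231819 (PKM, ENSG00000067225, minus), chr1:8861000-8879190 (ENO1, ENSG00000074800, minus) and chr2:172555373-172608669 (PDK1, ENSG00000152256, plus). An antisense transcript covers 7.51% of the exon bases of SLC2A1, 2.42% of those of ENO1 and 3.00% of those of PDK1. The transcript at SLC2A1 is not among the genes of the count table. A pseudogene on the other strand covers 0.713% of the exon bases of HK1. LDHA, PKM and ENO1 also have processed copies elsewhere in the genome that can share reads with them.

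Depth lay between 3455043 and 20379777 counts a library (median 10656829). PARP1 itself lay between 30.4 and 46.6 CPM (counts scaled to library size) in the 20 PARP1-KO libraries and between 737 and 887 CPM in the 20 WT libraries, without overlap. The lowest count of any of the 10 genes in any library was 73, for PDK1. Of 7 markers listed for HEK293 cells, VIM, KRT8, KRT18 and NEFL were at 188.6 CPM or more in every library, whereas PAX2, NEFM and INA were low, and INA was at 0 in 7 libraries. The fibroblast marker COL1A2 was at 0 in 35 libraries and DCN in 21, although COL1A1 (9.10 to 43.0 CPM) and COL3A1 (7.62 to 21.5 CPM) were detected. LUM reached at most 6.46 CPM. The blood markers PTPRC, CD3E and LYZ were below 1 CPM throughout, and HBB had too few counts to be tested. The library of PARP1-KO cells with DMSO numbered replicate 3 stood apart, as it lay outside the range of the other 3 of its group for 9 of the 10 genes. At equal depth, WT with DMSO replicate 3 (15510 genes detected) and untreated WT replicate 3 (15580) were the lowest of the 40 libraries, which ran up to 21571. They also had the highest mitochondrial shares of their groups, at 8.25 and 7.54% of counts.

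Levels between genes were compared as RPKM (counts per kilobase of exon length, scaled to library size). Exon length was that of all annotated exons of a gene merged, which can exceed that of the transcripts present. The order of the genes depends on this choice. By CPM, PKM (1480 ± 198) was above LDHA (1372 ± 278) in untreated WT cells. In untreated WT cells ENO1 was the most abundant at 510 ± 48.1 RPKM (mean ± SD, n = 4), followed by LDHA at 228 ± 46.1 and PKM at 173 ± 23.1. A middle group held HK1 (28.95 ± 3.05), TXNIP (26.2 ± 6.98) and ARRDC4 (17.1 ± 3.72). At the low end lay SLC2A1 (5.81 ± 1.84), PFKFB3 (5.70 ± 0.146), HK2 (4.90 ± 0.897) and PDK1 (2.14 ± 0.267). Neighbours in this order that differed by less than the larger of their SDs were HK1 and TXNIP, and SLC2A1, PFKFB3 and HK2. The 4 genes of lowest level were those with the largest rises in PARP1-KO cells, described next. In untreated PARP1-KO cells HK2 was at 18.1 ± 2.13 RPKM, close to HK1 at 19.5 ± 0.397, and PDK1 was still the lowest at 5.56 ± 0.383. By CPM HK2 was at 107 ± 12.6 and HK1 at 134 ± 2.73 there.

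The first question was how PARP1-KO cells differ from WT cells. The glucose transporter SLC2A1, the inducible hexokinase HK2, PFKFB3, LDHA, PDK1 and the alpha-arrestin ARRDC4 were higher in PARP1-KO cells with DMSO, HK1 was lower, and TXNIP, PKM and ENO1 did not pass the test. That is 7 of 10 genes past an adjusted p of 0.01 in edgeR's quasi-likelihood test, against 12.4% of all genes tested. Without treatment 6 of the 10 passed, 5 higher and HK1 lower, against 11.7% of all genes. The median log2 fold change of the 10 genes was 0.65 with DMSO and 0.45 without treatment, and that of all genes was 0.19 and 0.17. For SLC2A1, HK2, PFKFB3 and PDK1 the 20 PARP1-KO libraries did not overlap the 20 WT libraries, which held for 3.15% of all genes in either direction. Because the 10 genes were chosen with earlier results known, the shares of all genes, here and below, are descriptions and no test of enrichment. In these bulk samples, fewer cells of a type and less RNA per cell cannot be told apart.

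HK2 is the hexokinase that many proliferating cells induce. With DMSO its level was 127.3, 112, 102.7 and 99.6 CPM in PARP1-KO cells and 21.3, 25.7, 16.8 and 28.8 CPM in WT cells. The groups were far apart, with a log2 fold change of 2.26 ± 0.17 (SE, adjusted p = 2.22e-16 in edgeR), or 4.78-fold. Without treatment HK2 was at 98.01, 95.8, 111 and 122.9 CPM against 22.3, 35.2, 30.03 and 28.5 CPM, and the log2 fold change was 1.89 ± 0.16. Genes with a mean of at least 1 CPM within 2 Mb of HK2 moved the other way, with a median log2 difference of -0.53 over 45 genes, of which 11 were higher.

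HK1, the constitutive hexokinase, was at 140.3, 138, 103.5 and 139 CPM in PARP1-KO and 200.1, 227, 199 and 207 CPM in WT cells with DMSO. All 4 PARP1-KO libraries lay below the WT libraries, and the log2 fold change was -0.68 ± 0.11 (adjusted p = 2.66e-06 in edgeR). Genes within 2 Mb of HK1 had a median of -0.42 over 34 genes, of which 10 were higher, which is the direction of HK1 itself.

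The 2 hexokinases moved in opposite directions, and their composition differed accordingly. Per exon length, HK2 made up 14.4% ± 1.22 (SD, n = 4) of HK1 + HK2 in untreated WT cells and 48.0% ± 2.62 in untreated PARP1-KO cells. Over all treatments the share was 8.91 to 25.03% in WT and 41.3 to 53.6% in PARP1-KO libraries. The lowest PARP1-KO library was therefore above the highest WT library. The size of the share depends on the merged exon lengths, which are the same for all libraries. Within WT cells the share was lowest with DMSO (11.4% ± 2.06) and highest with Tpc + OL9-119 (21.7% ± 3.91).

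PDK1, which inhibits pyruvate dehydrogenase, was at 85.3, 77.9, 76.9 and 77.0 CPM in PARP1-KO and 29.3, 32.9, 8.75 and 35.9 CPM in WT cells with DMSO. The WT library at 8.75 CPM was the lowest of all 40, and the groups were separate with or without it. The log2 fold change was 1.57 ± 0.21 (adjusted p = 2.29e-08 in edgeR) with DMSO and 1.38 ± 0.20 without treatment, and ranged from 1.28 to 1.72 with single libraries left out with DMSO. Genes within 2 Mb of PDK1 were also higher, with a median of 0.35 and 21 of 26 higher.

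PFKFB3, the main activating kinase of the fructose 2,6-bisphosphate switch in proliferating cells, was at 87.4, 83.7, 53.8 and 77.8 CPM in PARP1-KO and 33.7, 26.5, 33.6 and 36.6 CPM in WT cells with DMSO. Even the low replicate 3 of PARP1-KO was above all WT libraries, and the log2 fold change was 1.22 ± 0.14 (adjusted p = 1.01e-09 in edgeR). SLC2A1, the basal glucose transporter, was at 99.2, 95.9, 62.4 and 90.9 CPM against 47.7, 43.99, 38.7 and 46.2 CPM. Its log2 fold change was 0.98 ± 0.17 with DMSO (adjusted p = 1.13e-05 in edgeR) and 1.18 ± 0.17 without treatment. The genes within 2 Mb of SLC2A1 had a median of 0.01.

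LDHA rose less, from 1244, 1336, 1376 and 1088 CPM in WT to 2362, 1818, 1543 and 1879 CPM in PARP1-KO cells with DMSO. The groups did not overlap, and the log2 fold change was 0.59 ± 0.12 (adjusted p = 1.26e-04 in edgeR). Without treatment it was 0.48 ± 0.12 (adjusted p = 0.00214 in edgeR). This call was lost when gene length and GC content were used as offsets, where the values were 0.20 with DMSO and 0.12 without treatment, and when only the 2 groups compared were fitted (0.57 and 0.46). Without treatment it was also lost when replicate 3 of PARP1-KO (0.45) or replicate 4 of WT (0.38) was left out. The other genes of chromosome 11 had a median of -0.48 with DMSO, over 854 genes, opposite to LDHA.

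ARRDC4 was at 107, 99.4, 126.8 and 101.7 CPM in PARP1-KO and 65.1, 70.2, 47.8 and 83.1 CPM in WT cells with DMSO, with a log2 fold change of 0.71 ± 0.13 (adjusted p = 3.21e-05 in edgeR). The call was lost when only these 2 groups were fitted (adjusted p = 0.0134). Without treatment the value of 0.42 ± 0.13 missed the threshold (adjusted p = 0.0159 in edgeR). Its paralog TXNIP differed by 0.16 with DMSO, with a 95% interval from -0.11 to 0.43, and by 0.26 (-0.01 to 0.53) without treatment. With length and GC offsets these values were -0.18 and 0.00, so that the sign of the first was not kept.

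PKM and ENO1, the abundant enzymes of the last steps of glycolysis, gave intervals that hold no large change. PKM differed by -0.18 (-0.38 to 0.02) and ENO1 by 0.06 (-0.13 to 0.26) with DMSO. For both, the PARP1-KO libraries overlapped the WT libraries.

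The share of counts on mitochondrial genes also moved with genotype, at 4.73 to 8.25% in WT and 3.73 to 4.97% in PARP1-KO libraries, and its part in these differences was not tested. The names of the libraries carry 1 of 3 prefixes whose meaning is not given. Within prefixes, 56 of 57 log2 ratios of the called genes had the sign of the fit, the exception being TXNIP with Tpc + OL9-119. They cover the direct comparisons of groups and not the genotype differences of responses. The genes were called from these same libraries, so agreement in sign is largely set by the selection and is a description.

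The solvent was examined next. In WT cells 0 genes were called between DMSO and no treatment by edgeR (0% of genes tested), with 3116 genes at an unadjusted p below 0.05 and 9 called by DESeq2, and 0 of the 10 genes were called by either. The same held in PARP1-KO cells, with 0 genes called (0%), 538 at an unadjusted p below 0.05 and 0 called by DESeq2. HK2 was 0.33 lower with DMSO in WT cells on the log2 scale (interval from -0.65 to -0.005). TXNIP was 0.26 higher (interval from -0.004 to 0.53), which is of the size of the differences seen with genotype.

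The second question was how Tpc, which creates trapped topoisomerase 1, affects these genes. In WT cells ARRDC4 rose and the other 9 genes were not called, so that 1 of 10 passed against 0.857% of all genes. Its levels were 107, 110, 107 and 106 CPM with Tpc and 54.4, 79.2, 59.0 and 85.3 CPM without treatment. All Tpc libraries were above all untreated ones and varied little, and the log2 fold change was 0.63 ± 0.13 (adjusted p = 0.00204 in edgeR). It lost its call when only these 2 groups were fitted (adjusted p = 0.0892), without WT untreated replicate 1 (0.0272) and without WT untreated replicate 3 (0.0192). Against DMSO the value was 0.69. Within the library-name prefixes the log2 ratios were 0.98, 0.48 and 0.56.

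TXNIP did not follow ARRDC4 under Tpc, at 119.9, 110, 109 and 98.1 CPM against 70.9, 92.0, 129.7 and 84.7 CPM without treatment (log2 fold change 0.21, interval -0.06 to 0.48). HK1 was lower by 0.36 with Tpc (adjusted p = 0.0653 in edgeR), which DESeq2 called (adjusted p = 0.00438). In PARP1-KO cells 0 of the 10 genes and 0.0138% of all genes were called, with 1713 genes at an unadjusted p below 0.05 and 0 of the 10 genes called by DESeq2. ARRDC4 was at 113, 92.7, 105 and 92.1 CPM with Tpc there and at 91.9, 96.5, 91.2 and 91.5 CPM without it. The difference between the genotypes in the Tpc response was called for 0 of the 10 genes, against 0.1% of all genes (2142 at an unadjusted p below 0.05, and 0 of the 10 called by DESeq2). For ARRDC4 it was -0.51 with an interval from -0.87 to -0.15 and an adjusted p of 0.558 in edgeR.

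The third question was how the TDP1 inhibitor OL9-119 affects them. In WT cells TXNIP and LDHA fell, which is 2 of 10 genes against 1.28% of all genes tested. The median log2 fold change of the 10 genes was -0.22, and that of all genes 0.003. TXNIP was at 57.7, 49.2, 63.0 and 57.8 CPM with OL9-119, against 70.9, 92.0, 129.7 and 84.7 CPM without treatment and 128.3, 107, 108 and 110 CPM with DMSO. The OL9-119 libraries lay below both controls without overlap. The log2 fold change was -0.73 ± 0.14 against no treatment (adjusted p = 4.57e-04 in edgeR) and -0.99 ± 0.14 against DMSO. The call against no treatment was lost when only the 2 groups were fitted (adjusted p = 0.0814) and without WT untreated replicate 3, the library with 129.7 CPM, where the value was -0.54 (adjusted p = 0.0217). Within the library-name prefixes the log2 ratios were -0.30, -0.90 and -0.83.

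LDHA fell in the same comparison, from 1342, 1288, 1759 and 1099 CPM to 815, 939, 864 and 919 CPM, by 0.63 ± 0.12 on the log2 scale (adjusted p = 4.09e-04 in edgeR). The groups did not overlap. The call was lost when only the 2 groups were fitted (adjusted p = 0.0400) and without WT untreated replicate 3 (-0.49, adjusted p = 0.0164). PKM (-0.39) and ENO1 (-0.37) had adjusted p-values of 0.0159 and 0.0226 in edgeR and were called by DESeq2. Abundant genes were lower in general: the 472 genes above 300 CPM had a median log2 fold change of -0.21 and 72.7% of them were lower. SLC2A1, HK1, HK2, PFKFB3 and PDK1 were not called. Mitochondrial genes held 4.73 to 5.95% of counts in these libraries against 6.38 to 7.54% without treatment, and the part of this in the decreases was not tested.

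In PARP1-KO cells OL9-119 gave no call among the 10 genes by edgeR or DESeq2, against 0.00346% of all genes, and 931 genes were at an unadjusted p below 0.05. TXNIP was at 137, 133, 147 and 140 CPM with OL9-119 and at 108, 118, 108 and 118 CPM without treatment, whereas with DMSO it was at 116.9, 111, 158 and 120.0 CPM. All 4 treated libraries were above the untreated ones, in the direction opposite to WT cells, but lay within the range of the DMSO libraries. That range reached 158 CPM only through DMSO replicate 3, the library that stood apart, and the other DMSO libraries were at most at 120.0 CPM. The log2 difference from no treatment of 0.30 (interval 0.04 to 0.57) was not called. The difference between the genotypes in the TXNIP response was itself tested and was 1.03 ± 0.19 (adjusted p = 0.00329 in edgeR), 1 of 10 genes against 0.0657% of all genes. With DMSO as the comparator it was 1.13 (adjusted p = 3.98e-04). Its adjusted p rose above 0.01 with length and GC offsets (1.10, adjusted p = 0.0122), with only the groups compared (1.02, adjusted p = 0.0166), and without PARP1-KO untreated replicate 1 or 3, WT OL9-119 replicate 2, PARP1-KO OL9-119 replicate 3 or WT untreated replicate 3. Over all single libraries left out it ranged from 0.84 to 1.14. LDHA differed by 0.50 (0.17 to 0.83) between the genotypes and was not called (adjusted p = 0.577).

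The combination was examined last. In WT cells Tpc + OL9-119 lowered TXNIP, LDHA, PKM and ENO1, 4 of the 10 genes against 4.07% of all genes, with a median of -0.20 for the 10 genes and 0 for all genes. TXNIP was at 74.3, 62.2, 48.8 and 47.0 CPM, of which the highest overlapped the untreated libraries and none reached the DMSO libraries. Its log2 fold change was -0.69 ± 0.14 against no treatment (adjusted p = 5.07e-04 in edgeR) and -0.95 ± 0.14 against DMSO. It was not called when only the 2 groups were fitted (adjusted p = 0.0551) or without WT untreated replicate 3 (-0.51, adjusted p = 0.0139). Within the library-name prefixes the log2 ratios were 0.07, -0.57 and -1.16.

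ENO1 was at 1644, 2009, 2085 and 1846 CPM with the combination and 2980, 2675, 2602 and 2373 CPM without treatment. These did not overlap, and the log2 fold change was -0.49 ± 0.10 (adjusted p = 5.18e-04 in edgeR). PKM (-0.49 ± 0.10) did not overlap either, while LDHA (-0.54 ± 0.12) overlapped at 1 library, the combination replicate 2 at 1102 CPM. LDHA was not called against DMSO (-0.42, adjusted p = 0.0184) or without WT untreated replicate 3 (-0.41, adjusted p = 0.0275), and PKM was not called against DMSO (-0.38, adjusted p = 0.0101) or with length and GC offsets (-0.55, adjusted p = 0.0233). None of the 3 was called with only the 2 groups fitted. The 472 abundant genes had a median of -0.21 here too, and 69.3% of them were lower. HK2 went the other way, at 48.5, 29.9, 46.2 and 41.7 CPM against 22.3, 35.2, 30.03 and 28.5 CPM, where the groups overlapped, with a log2 difference of 0.52 that missed the threshold (adjusted p = 0.0330 in edgeR) and was called against DMSO (0.85 ± 0.17, adjusted p = 3.20e-04).

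Adding OL9-119 to Tpc in WT cells lowered TXNIP by 0.90 ± 0.14 on the log2 scale (adjusted p = 4.27e-05 in edgeR), from 119.9, 110, 109 and 98.1 CPM, and this was the only 1 of the 10 genes called, against 0.18% of all genes. It kept its call with every single library left out (-1.04 to -0.82). ARRDC4 was lower in all 4 combination libraries than in all Tpc libraries, at 80.4, 75.1, 81.6 and 73.9 CPM, but was not called (-0.47, adjusted p = 0.130 in edgeR). A departure from additivity in WT cells was called for 0 of the 10 genes, against 0.00346% of all genes (3008 at an unadjusted p below 0.05, 9 called by DESeq2), and for TXNIP it was 0.09.

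In PARP1-KO cells 0 of the 10 genes were called with the combination against no treatment (0% of all genes, 1241 at an unadjusted p below 0.05, 1 by DESeq2) or against Tpc (0%, 1186 and 1). TXNIP was at 145, 142, 120.8 and 145 CPM with the combination there. The genotype difference of its response was 0.98 ± 0.19 (adjusted p = 0.00281 in edgeR), 1 of 10 genes against 0.27% of all genes. It ranged from 0.79 to 1.12 with single libraries left out, and lost the call without WT untreated replicate 3, without WT combination replicate 3 or 4, and with only the groups compared (0.99, adjusted p = 0.0209). For HK2 the difference was -0.81 (-1.25 to -0.37, adjusted p = 0.0884 in edgeR) against no treatment and -1.18 against DMSO, where it was called (adjusted p = 0.00108). The comparisons of treatments share their untreated libraries.

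**Figure D1:**
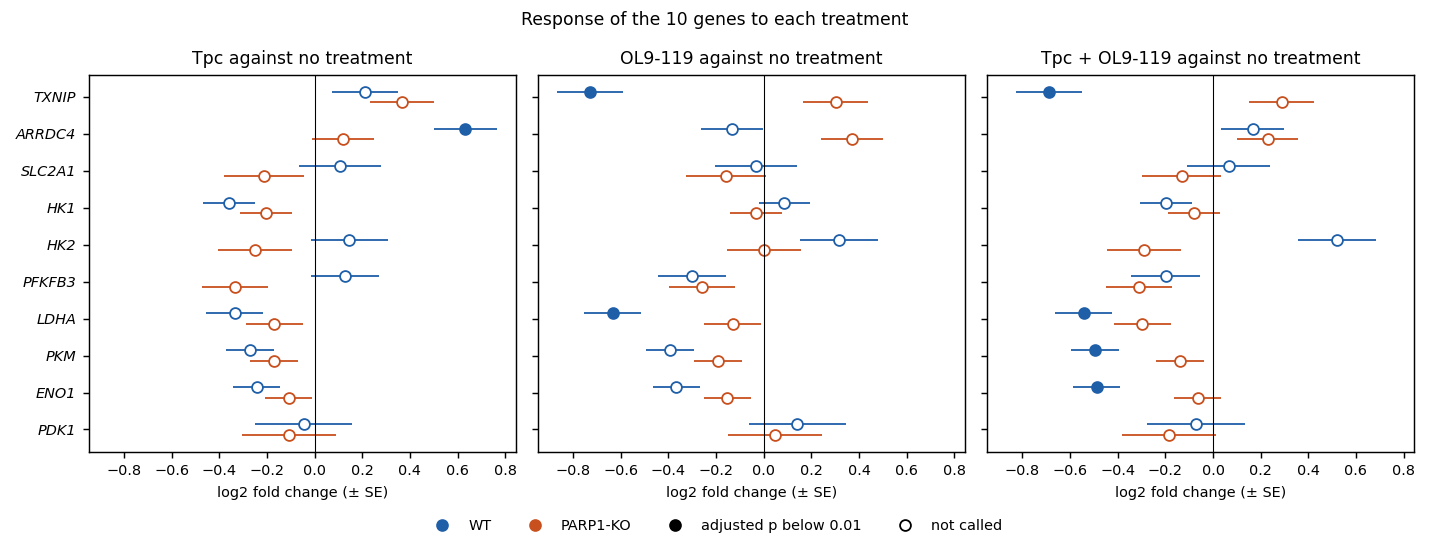
Log2 fold change against no treatment (horizontal axis, ± SE) of the 10 genes under Tpc, OL9-119 and Tpc + OL9-119, in WT (blue) and PARP1-KO cells (orange), filled where the adjusted p was below 0.01. The filled points are all WT: ARRDC4 at 0.63 under Tpc, TXNIP at -0.73 and LDHA at -0.63 under OL9-119, and TXNIP, LDHA, PKM and ENO1 under the combination.

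The level of TXNIP thus ran across the 10 conditions from 15.8 ± 1.59 RPKM in WT cells with OL9-119 and 16.1 ± 3.55 with the combination, which differed by less than their SDs, through values from 26.2 to 31.4 RPKM in the other WT conditions and untreated PARP1-KO cells, to 40.5 ± 4.26 in PARP1-KO cells with Tpc. The 4 treated PARP1-KO conditions, from 35.1 to 40.5 RPKM, lay within an SD of a neighbour. Among 10523 genes with a mean of at least 10 CPM, the 5 whose mean log2 CPM over the 10 conditions correlated best with TXNIP were RNF103 (Pearson r = 0.963), FASTKD5 (0.953), FTSJ3 (0.953), DCP2 (0.943) and BAG3 (0.938). For LDHA they were STC1 (0.991), PGK1 (0.988), UTP18 (0.987), FAM162A (0.987) and DNAJB4 (0.985). PGK1 is itself a glycolytic enzyme. Among the 10 genes, HK2 and PDK1 were most alike (r = 0.983), followed by SLC2A1 and PFKFB3 (0.977), while ARRDC4 and HK1 ran opposite (-0.91). TXNIP and ARRDC4 correlated at 0.709. These r values are over 10 condition means that share the genotype difference, and are descriptions.

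Other enzymes of glycolysis, in a list of 22 of which 20 were tested, moved in both directions with genotype. With DMSO 3 were higher in PARP1-KO cells, namely the neuronal enolase ENO2 (0.95 ± 0.13), phosphoglycerate kinase PGK1 (0.75 ± 0.11) and GPI (0.66 ± 0.12), and 1 was lower, the mutase PGAM1, with a list median of 0.01. Without treatment ENO2 and PGK1 were higher and PGAM1 (-0.49 ± 0.13) lower. With OL9-119 in WT cells 4 of the 20 fell and 0 rose, ALDOC (-0.97 ± 0.23), PGAM1 (-0.79 ± 0.13), TPI1 (-0.53 ± 0.11) and PGK1 (-0.51), with a list median of -0.31 against 0.003 for all genes. With the combination 6 fell and 0 rose, led by TPI1 (-0.58 ± 0.11), PGAM1 (-0.56 ± 0.13) and PGK1 (-0.53 ± 0.11), with LDHB, GPI and GAPDH, and the list median was -0.40. The 472 genes above 300 CPM had a median of -0.21 with OL9-119 and also with the combination. The part of this general shift in the list medians was not tested. Against DMSO PGK1 was not called with OL9-119 (-0.37, adjusted p = 0.0539), nor with the combination were PGK1 (-0.38, adjusted p = 0.0217), PGAM1 (-0.49, adjusted p = 0.0110), GPI (-0.21, adjusted p = 0.277) or GAPDH (-0.40, adjusted p = 0.0257).

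Of 11 genes of glucose and lactate transport, the high-affinity glucose transporter SLC2A3 rose from 154.8 ± 26.2 to 487 ± 108 CPM (SD, n = 4) in PARP1-KO cells with DMSO, by 1.65 ± 0.15 (adjusted p = 2.13e-13 in edgeR). The lactate transporter SLC16A1 was also higher (0.57 ± 0.11), and SLC2A6 was lower (-1.27 ± 0.18). Without treatment 3 were higher, SLC2A3 (1.27 ± 0.15), SLC16A7 (0.98 ± 0.24) and SLC16A1, and SLC2A6 was lower (-1.41 ± 0.18). SLC2A3 was lower with Tpc than without treatment in WT cells (-0.66 ± 0.15) but was not called against DMSO (-0.11, adjusted p = 0.772), and no other drug comparison called a gene of this list.

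Of 15 genes of the phosphofructokinase-2 family and of pyruvate entry, 2 were higher and 5 lower in PARP1-KO cells with DMSO, against 12.4% of all genes. PDK4, a kinase paralog of PDK1, rose (0.91 ± 0.26), as did TIGAR, which lowers fructose 2,6-bisphosphate. The kinase PDK2 (-1.06 ± 0.22) and the pyruvate dehydrogenase subunit gene PDHB (-0.76 ± 0.14) fell with PDK3, DLAT and PDHX, so the 4 PDK paralogs did not move one way. PDK2 shares 38.6% of its exon bases with a gene on the other strand. Without treatment PDK4 (1.17 ± 0.26) and the phosphatase PDP2 (0.84 ± 0.16) were higher, and PDK3 (-0.89 ± 0.15), PDHB and DLAT lower. In WT cells PDP2, which reactivates pyruvate dehydrogenase, rose with OL9-119 (0.82 ± 0.16) and with the combination (1.08 ± 0.16). Against DMSO its value with OL9-119 was 0.37 and was not called (adjusted p = 0.217).

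In the network of MLX and MAX factors, which bind E-boxes, 3 of 11 genes were higher and 2 lower in PARP1-KO cells with DMSO, against 12.4% of all genes. MYC (0.93 ± 0.21), MXD1 and MXI1 were higher, and MXD3 (-0.98 ± 0.22) and MXD4 (-0.96 ± 0.16) lower, while MLXIP, which encodes MondoA, and MLX were not called. MXD3 overlaps genes on both strands. Without treatment MXD1 (1.49 ± 0.19), MGA and MXI1 were higher and MXD3 (-1.16 ± 0.22) and MXD4 (-0.90 ± 0.16) lower. In WT cells MXD1, a repressor that pairs with MAX, was higher than without treatment with Tpc (1.19 ± 0.19) and with the combination (1.55 ± 0.19), and MXD3 was lower (-0.99 ± 0.22 and -1.03 ± 0.22). MXD1 was also 0.72 higher with DMSO alone in WT cells (interval 0.34 to 1.09), which was not called (adjusted p = 0.231). Against DMSO its log2 fold change was 0.47 ± 0.19 with Tpc, which was not called (adjusted p = 0.193), and 0.83 ± 0.19 with the combination (adjusted p = 0.00224). MXD3 was not called with Tpc against DMSO either (-0.82, adjusted p = 0.0327). The combination response of MXD1 differed between PARP1-KO and WT cells by -1.29 ± 0.26 against no treatment (adjusted p = 0.00362 in edgeR) and by -0.71 ± 0.26 against DMSO, where it was not called (adjusted p = 0.210).

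Among 8 other alpha-arrestins and thioredoxin genes, of which 7 were tested, ARRDC3 rose where TXNIP fell, with OL9-119 and the combination in WT cells. ARRDC3 was at 17.0 ± 1.31 CPM (SD, n = 4) in untreated WT cells, 30.7 ± 5.52 with Tpc, 49.6 ± 3.19 with OL9-119 and 58.3 ± 9.22 with the combination, and at 83.2 ± 7.57 in untreated PARP1-KO cells. It rose with Tpc (0.86 ± 0.16), OL9-119 (1.55 ± 0.16) and the combination (1.79 ± 0.16) in WT cells, and by 0.93 ± 0.15 when OL9-119 was added to Tpc. It was higher in PARP1-KO cells by 2.49 ± 0.16 with DMSO and 2.29 ± 0.16 without treatment, and the genotypes differed in its response to OL9-119 by -1.26 ± 0.21 and to the combination by -1.60 ± 0.21. Thioredoxin (TXN), the protein that TXNIP binds, fell in WT cells with OL9-119 (-0.71 ± 0.13) and the combination (-0.72 ± 0.13). In PARP1-KO cells with DMSO ARRDC1 (-1.49 ± 0.25), TXN2 (-0.84 ± 0.19), TXNRD2 and TXN were lower. Without treatment TXNRD1 was higher with ARRDC3, and ARRDC1 (-1.48 ± 0.25), TXN (-0.81 ± 0.13) and TXN2 were lower.

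Of 16 genes of the HIF pathway outside glycolysis, 4 were higher and 0 lower in PARP1-KO cells with DMSO, against 12.4% of all genes in either direction. The 4 were the angiogenic factor VEGFA (1.98 ± 0.12), ADM (1.23 ± 0.17), the demethylase KDM3A (0.81 ± 0.16) and P4HA1. Without treatment 6 were higher and 0 lower, against 11.7% of all genes. The 6 were ANKRD37, VEGFA (1.37 ± 0.12), ADM (1.18 ± 0.17), HIF1A (0.72 ± 0.14), KDM3A and BNIP3. The list medians were 0.41 and 0.29, against 0.19 and 0.17 for all genes. VEGFA alone of this list was called under drugs in WT cells, with OL9-119 (1.05 ± 0.12), the combination (0.94 ± 0.12) and OL9-119 added to Tpc (0.66 ± 0.12). Its response was smaller in PARP1-KO cells, by 0.92 ± 0.17 with OL9-119 and by 0.82 ± 0.17 with the combination on the log2 scale. Against DMSO these differences were -1.53 ± 0.17 and -1.43 ± 0.17.

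Of 14 genes of AMPK and mTORC1 energy sensing, DDIT4, an inhibitor of mTORC1 that is induced by stress, was at 72.0 ± 16.01 CPM (SD, n = 4) in untreated WT cells and 204.8 ± 20.6 CPM in untreated PARP1-KO cells. It was higher in PARP1-KO cells by 1.72 ± 0.15 with DMSO, together with the AMPK subunit genes PRKAA2 (0.76 ± 0.19) and PRKAB2 (0.65 ± 0.15), and SESN3 was lower. Without treatment DDIT4 (1.51 ± 0.14), PRKAA2 (0.83 ± 0.19), PRKAB2 and SESN2 were higher and SESN3 (-0.75 ± 0.16) lower. In WT cells OL9-119 raised DDIT4 (1.76 ± 0.14, to 244 ± 20.4 CPM) and the stress-induced SESN2 (1.37 ± 0.13), as did the combination (1.10 ± 0.14 and 1.02 ± 0.13) and its comparison with Tpc (1.22 ± 0.14 and 0.62 ± 0.13). The responses were smaller in PARP1-KO cells for DDIT4 with OL9-119 (by 1.40 ± 0.20) and the combination (by 1.14 ± 0.20), and for SESN2 with OL9-119 (by 1.17 ± 0.18).

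**Figure D2:**
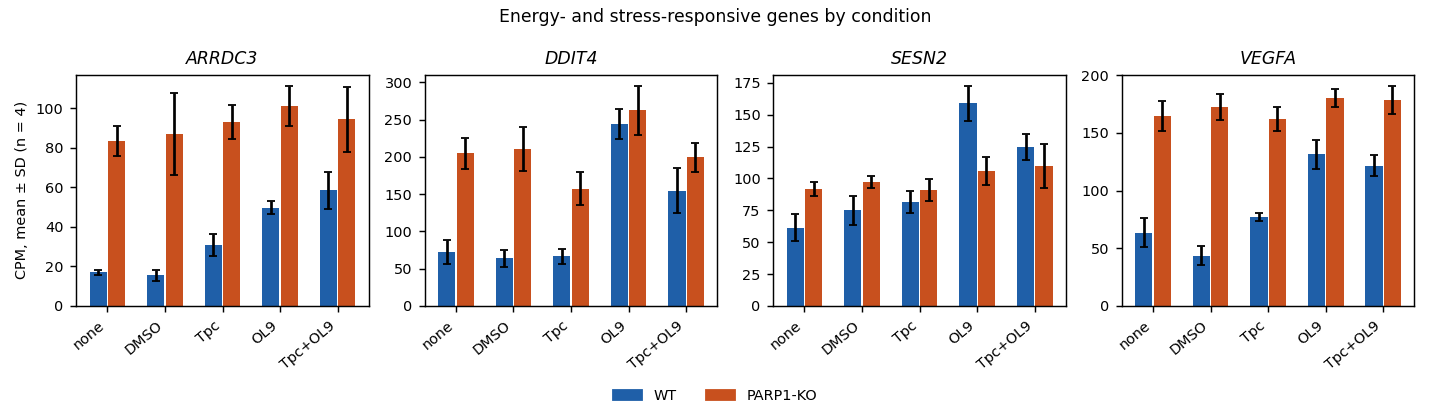
Mean CPM (bars from 0, ± SD, n = 4) of ARRDC3, DDIT4, SESN2 and VEGFA by treatment in WT (blue) and PARP1-KO cells (orange). All 4 genes are higher in untreated PARP1-KO than in untreated WT cells, and higher with OL9-119 than without treatment in WT cells.

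In the pentose phosphate pathway, the transaldolase gene TALDO1 was lower in PARP1-KO cells with DMSO (-0.57 ± 0.13). The combination lowered PGLS (-0.91 ± 0.20) and TALDO1 (-0.55 ± 0.13) in WT cells, of which PGLS was not called against DMSO (-0.50, adjusted p = 0.116). The markers listed for HEK293 cells also moved with genotype, as VIM was higher and KRT8, KRT18, PAX2 and NEFM were lower in PARP1-KO cells with DMSO, and KRT8 and KRT18 fell with the combination in WT cells, KRT18 without a call against DMSO (-0.39, adjusted p = 0.0225). Of the 5 fibroblast markers COL1A1 was lower, and the blood markers PTPRC, CD3E and LYZ were not called.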

How the data were processed

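The authors prepared directional poly(A) libraries, sequenced 100 bp paired-end reads, aligned them to hg38 with STAR 2.7.8 and deposited raw read counts per gene, neither normalized nor pooled. FastQC 0.11.9 and Picard 2.26.6 are also in the submitters' processing notes. Which strand column of the STAR output was kept is not given in the sources used here. Gene names and exon lengths (all exons of a gene merged) came from GENCODE v44, which matched 57754 of 58395 genes.

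The test was edgeR's quasi-likelihood test (edgeR 4.0.16, R 4.3.3) on genes whose counts added up to 10 or more (TMM, glmQLFit with legacy = TRUE, 10 groups, no covariate). P-values were adjusted by Benjamini-Hochberg over 28922 genes, with a threshold of 0.01. SEs are the log2 fold change divided by the square root of F, and 95% intervals are 1.96 SEs. CPM used TMM library sizes. DESeq2 1.42.0, other filters and scalings, offsets for length and GC content and left-out libraries were alternatives. The filter and the threshold follow the study's methods, which used DESeq2, here an alternative. The fits were tested on simulated data. With total counts of 3455043 to 20379777, counting error is small for the abundant genes among the 10. It is larger where counts were low, down to 73 for PDK1, 119 for PFKFB3, 128 for SLC2A1 and 140 for HK2 in WT libraries.

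The genes named were the 10 genes, PARP1, up to 3 called genes of each list and comparison with a mean of at least 10 CPM and the largest log2 fold changes, and the 5 genes most like TXNIP and LDHA. Further called genes of the lists were named after their values were seen. The 10 genes and all lists were chosen with earlier results of these data known. Some items of the pathway and marker lists are not reported here.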

Additional observations from a re-analysis of the deposited data

Results flagged for a closer look

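In 10 of 100 groups of 4 libraries, 1 for each gene and condition, the highest or lowest library lay farther from the others than Dixon's critical value for 4 samples allows, where chance gives about 1 in 20. For TXNIP these were WT with DMSO replicate 1 at 128.3 CPM, PARP1-KO with Tpc replicate 2 at 122.9 CPM and PARP1-KO with Tpc + OL9-119 replicate 3 at 120.8 CPM. For ARRDC4 they were untreated PARP1-KO replicate 2 at 96.5 CPM and PARP1-KO with OL9-119 replicate 3 at 133.7 CPM, which was also high for SLC2A1 at 85.3 CPM. HK1 was low in PARP1-KO with DMSO replicate 3 at 103.5 CPM and high in PARP1-KO with OL9-119 replicate 1 at 138.8 CPM. PDK1 was low in WT with Tpc + OL9-119 replicate 2 at 18.8 CPM and high in PARP1-KO with DMSO replicate 1 at 85.3 CPM.

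The response to OL9-119 differed between the genotypes in a test of the difference itself, PARP1-KO minus WT on the log2 scale, for TXNIP (1.03), ARRDC3 (-1.26), DDIT4 (-1.40), SESN2 (-1.17) and VEGFA (-0.92). The response to Tpc + OL9-119 differed for TXNIP (0.98), ARRDC3 (-1.60), MXD1 (-1.29), DDIT4 (-1.14) and VEGFA (-0.82), where the Tpc dose differed between the genotypes too. These values are against untreated cells, and against DMSO that of MXD1 was -0.71 and was not called.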

How the results depend on the processing

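Counts of the 10 genes called kept within 1.5 times in all comparisons and alternatives except the following. With OL9-119 in WT cells 2 genes were called, against 4 with DESeq2, legacy = FALSE, no filter on low counts or a threshold of 0.05, and 0 when only the groups compared were fitted. With Tpc in WT cells 1 was called, against 2 with DESeq2 and 0 with only the groups compared, and with the combination 4 against 0. The genotype difference of the OL9-119 response was called for 1 gene, against 0 with length and GC offsets or only the groups compared, and that of the combination for 1, against 2 with DMSO-treated cells as comparator and 0 with only the groups compared. The last setting estimates the spread from fewer libraries, and the cause of the other changes was not tested. With single libraries left out the counts ran from 5 to 7 for PARP1-KO against WT without treatment, 0 to 1 for Tpc, 0 to 4 for OL9-119 and 2 to 5 for the combination in WT cells, and 0 to 1 for both genotype differences. No called value changed sign. Over all genes the calls for PARP1-KO against WT were 3592 with DMSO and 3386 without treatment, against 1636 and 2213 with only the groups compared and 5585 and 5294 at 0.05. In WT cells 248 (Tpc), 371 (OL9-119) and 1177 (combination) calls became 61, 42 and 225 with only the groups compared, 561, 742 and 1885 with DESeq2 and 594, 816 and 2476 at 0.05, and without the filter 474 and 648 for the single drugs. OL9-119 added to Tpc gave 52 calls, against 106 with DESeq2, 79 without the filter and 82 at 0.05. The genotype differences gave 29 (Tpc), 19 (OL9-119) and 78 (combination) calls, against 48, 37 and 155 with DESeq2 and 50, 29 and 0.432% of genes tested with the DMSO comparator, 44 and 152 without the filter for Tpc and the combination, 139 at 0.05 for the combination and 9 with length and GC offsets for OL9-119. Non-additivity (1 call) and the PARP1-KO treatments (0 to 4 calls) gave at most 16 and 63 in any such setting. Library complexity as a covariate was added after seeing the data.

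Same-numbered libraries deviated together with a mean correlation of 0.038, against -0.008 for different numbers. For same-numbered libraries it was 0.062 within WT, 0.111 within PARP1-KO and -0.001 across genotypes. Different numbers within a genotype were not examined apart, so a weak pairing within a genotype was not tested. With the replicate number as a block 7 genes were called with DMSO and 6 without treatment for PARP1-KO against WT, and 1, 2 and 4 with Tpc, OL9-119 and the combination in WT cells, as without it, and the block changed the count in 0 comparisons. No 2 libraries agreed within counting noise.

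Each group had 4 libraries, the knockout was 1 clone and Tpc doses differed between the genotypes, so genotype differences cannot be told apart from the clone, nor Tpc differences from the dose.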
